A study of Mus musculus with 12 samples.

Results

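The Slc1, Slc7 and Slc3 families carry glutamate and other amino acids across cell membranes, and 10 of their genes (Slc1a1, Slc1a2, Slc1a3, Slc1a4, Slc1a5, Slc7a1, Slc7a5, Slc7a11, Slc7a15 and Slc3a1) were followed along the epididymis in mice with and without a conditional deletion of Dicer1 (Dicer1 cKO and control). They are 10 of the 22180 genes that had at least 1 probe-set of their own. Each gene was represented by the probe-set with the highest mean over the 12 arrays. The genes were chosen from earlier results of these same arrays, in which Slc1a1 was low in the corpus of Dicer1 cKO mice and Slc7a15 was high in the cauda of control mice. These values are given here as a description, with no test, and so is every difference that contains the corpus arrays of the cKO mice for Slc1a1, or the control arrays of both regions for Slc7a15. What led to the choice of the other 8 genes is not stated in the sources used here.

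The epididymis is the long tubule in which sperm mature after leaving the testis, and the corpus and the cauda are its middle and last parts. Messenger RNA of these regions was measured in 4 groups of 3 arrays each, namely the cauda and the corpus of Dicer1 cKO mice (Defb41iCre/wt;Dicer1fl/fl) and the cauda and the corpus of control mice (Dicer1fl/fl). Both genotypes carry the floxed alleles of Dicer1, the enzyme that makes mature microRNAs, and only the cKO mice carry the Cre recombinase. The Cre is driven by the promoter of beta-defensin 41, which is active in the principal cells of the proximal duct (initial segment and caput), so the gene is removed before puberty in a segment that lies upstream of both regions measured. The left and right tissues of a region were pooled before RNA was extracted, and the age of the mice is not given in the sources used here.

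Glutamate carriers of the Slc1 family use the sodium gradient to bring glutamate and aspartate into cells against a steep concentration difference. The Slc1 family also holds exchangers of small neutral amino acids. Members of the Slc7 family are either single-chain carriers of arginine and lysine or light chains, which do the transport and reach the membrane only when bound to a heavy chain of the Slc3 family. Epididymal fluid is known to be rich in glutamate and other organic solutes, and its composition changes along the duct.

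Values are log2 intensities, so that a difference of 1 is a doubling, and the level of one gene cannot be set against the level of another because probes bind with unequal strength. Array medians lay between 5.19 and 5.31. The probe-sets of 6 of the 10 genes were above the median of the array on all 12 arrays, and that of Slc7a15 on 11. Those of the other 3 (Slc1a2, Slc1a3 and Slc3a1) were above it on at most 1 array, so that their differences lie near the bottom of the scale. Epithelial markers were high in all groups, with a mean log2 intensity over 7 measured markers of 9.76 to 9.90 in the cKO cauda, 9.59 to 9.95 in the control cauda, 9.97 to 10.36 in the cKO corpus and 9.91 to 10.19 in the control corpus. Some arrays stood apart in these lists. In the corpus of cKO mice, 10 interferon-stimulated genes averaged 8.35, 8.84 and 7.38 in replicates 1, 2 and 3, against 6.50 to 6.83 in the control corpus. In the cauda, 9 markers of the initial segment and caput averaged 6.35 in cKO replicate 3 and 6.65 in control replicate 3, whereas the other cauda arrays lay at 8.98 and 9.02 in cKO mice and at 8.31 and 8.61 in control mice. Markers of haploid germ cells separated the genotypes in the cauda, where 9 of them averaged 6.28 to 7.03 in cKO mice and 9.01 to 9.86 in control mice. In the corpus they averaged 8.86, 7.50 and 5.96 in cKO replicates 1, 2 and 3 and 7.16 to 8.40 in control mice. Their part in the differences between genotypes was not tested. Values without corpus cKO replicates 1, 2 or 3, or without the third replicates of the cauda, are given beside some of the results they move.

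The promoters of the 3 genes with the clearest patterns are shown because their RNA differed between regions or genotypes. Promoter sequences of RefSeq (GRCm38.p6) were found for 8 of the 10 genes (Slc1a5 and Slc7a5 had none in the table). Each line gives the 250 bases before the transcription start on the strand of the gene. The window of Slc1a1 is chr19:28834885-28835134 on the plus strand, that of Slc7a11 is chr3:50443614-50443863 on the minus strand, and that of Slc7a15 is chr12:8599067-8599316 on the minus strand, one of 2 starts listed for this gene. Capitals mark matches to the core of the amino acid response element, the site through which ATF4 raises transcription when amino acids run short in cells.
Slc1a1: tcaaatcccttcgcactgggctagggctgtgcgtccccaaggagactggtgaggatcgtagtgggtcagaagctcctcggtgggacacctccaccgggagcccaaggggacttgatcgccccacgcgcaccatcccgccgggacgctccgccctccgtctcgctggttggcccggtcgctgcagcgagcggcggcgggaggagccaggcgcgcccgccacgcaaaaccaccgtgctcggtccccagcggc
Slc7a11: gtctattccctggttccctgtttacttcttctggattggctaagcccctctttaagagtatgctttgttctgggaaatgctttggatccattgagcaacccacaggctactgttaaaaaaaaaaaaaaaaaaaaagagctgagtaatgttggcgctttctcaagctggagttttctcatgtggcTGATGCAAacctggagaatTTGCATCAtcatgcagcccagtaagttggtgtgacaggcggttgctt
Slc7a15: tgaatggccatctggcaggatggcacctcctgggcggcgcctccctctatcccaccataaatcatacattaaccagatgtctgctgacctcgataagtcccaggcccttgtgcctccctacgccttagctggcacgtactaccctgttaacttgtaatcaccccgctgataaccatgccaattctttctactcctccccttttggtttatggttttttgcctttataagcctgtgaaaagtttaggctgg

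The window of Slc1a1 was rich in G and C (70.4%), against 50.0% in that of Slc7a15 and 43.2% in that of Slc7a11. The core searched was TGATGNAA on both strands, and it was found in 3.45% of all 32851 promoter windows of the same length. Among the 10 windows of the 8 genes, only that of Slc7a11 held it, with 2 matches whose first bases lie 66 bases before the start on the strand of the gene and 47 bases before it on the opposite strand. The core of the antioxidant response element, TGACNNNGC, was found in 10.2% of all windows and, among the 8 genes, only in 1 window of Slc7a1, 11 bases before the start on the opposite strand. A match shows that these letters are present and not that a factor binds there.

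**Figure D1:**
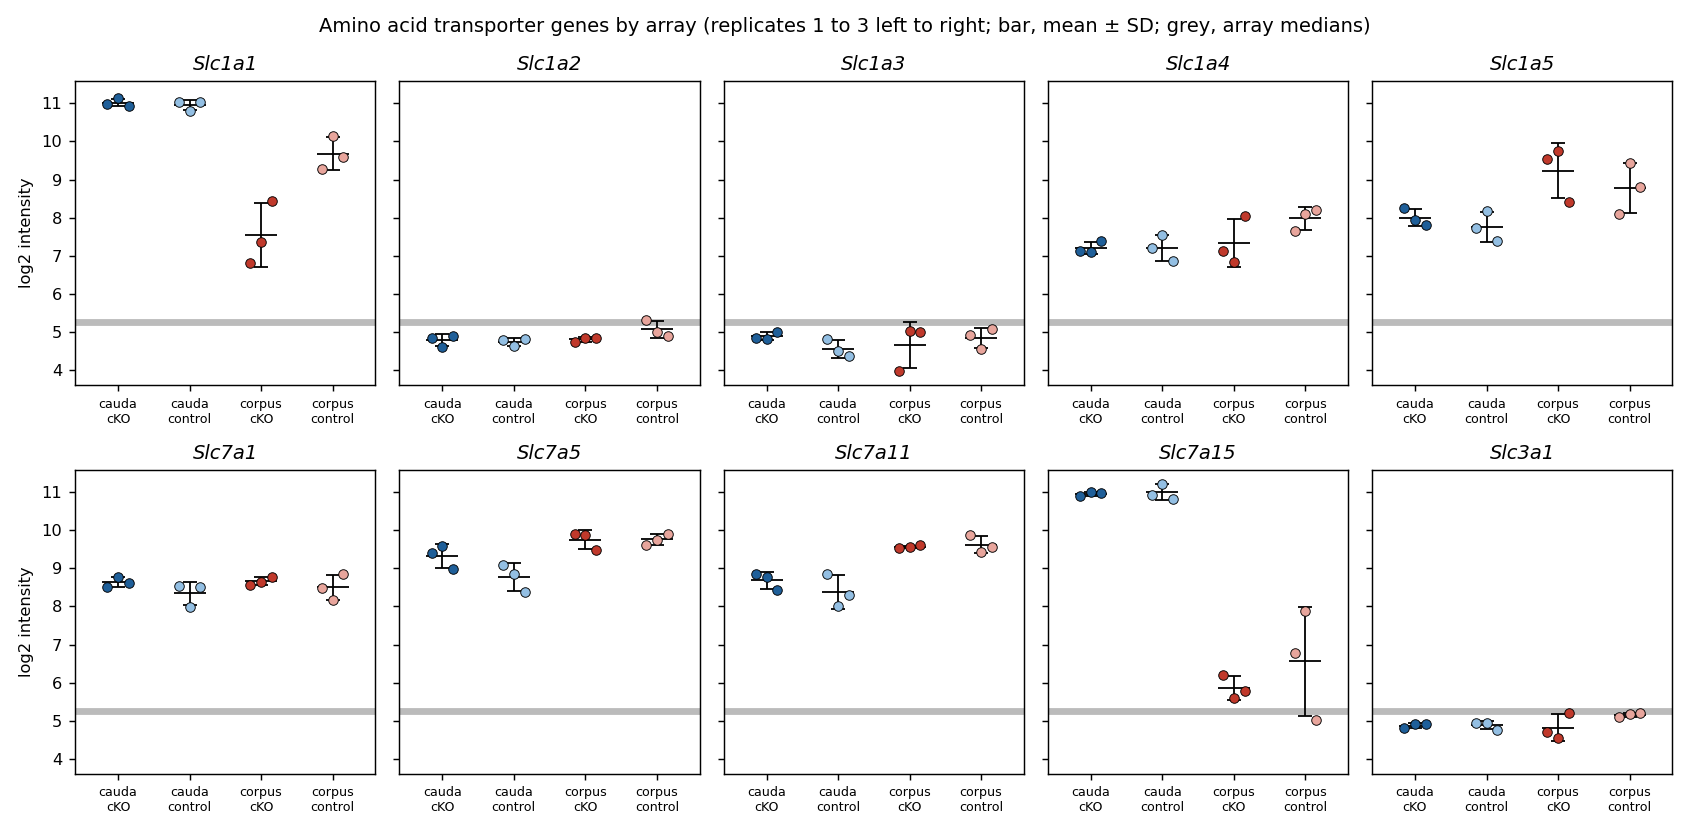
The log2 intensity of each of the 10 genes on each of the 12 arrays, with points for replicates 1 to 3, bars for the mean and SD of a group, and a grey band for the range of the array medians. Slc1a1 was lowest in the corpus of cKO mice (6.81 to 8.45) and Slc7a15 was near 11 in the cauda of both genotypes, whereas Slc1a2, Slc1a3 and Slc3a1 stayed at or below the band on nearly all arrays.

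Slc1a1 encodes the glutamate carrier of neurons and of absorbing epithelia, which also takes up aspartate and cysteine. In the corpus it read 6.81, 7.36 and 8.45 in cKO mice, against 9.29, 10.15 and 9.60 in control mice. All 3 cKO arrays lay below all 3 control arrays, and the cKO arrays were more widely spread (SD 0.83 in cKO mice and 0.43 in control mice, n = 3 each). The difference of means was -2.14 on the log2 scale (standard error 0.34 from limma), a level 4.40-fold lower in cKO mice. It was -1.77, -2.05 and -2.59 without cKO replicates 1, 2 and 3, and -2.33, -1.90 and -2.18 without control replicates 1, 2 and 3. In whole tissue, fewer cells that make a transcript and less of it per cell cannot be told apart.

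In the cauda Slc1a1 was at one level in both genotypes, with 10.98, 11.13 and 10.94 in cKO mice and 11.03, 10.81 and 11.04 in control mice. The arrays of the genotypes overlapped and their means were 0.06 apart (standard error 0.34, with adjusted p = 1 by limma). The cKO effect in the corpus minus that in the cauda was thus -2.19 (standard error 0.49), which is a description, since it contains the corpus values that led to the choice of the gene.

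Other signals also set cKO replicates 1 and 2 apart from replicate 3 among the corpus arrays. The 2 cKO arrays with the lowest Slc1a1 (replicates 1 and 2) had the highest averages of interferon-stimulated genes, 8.35 and 8.84. They also had the highest averages of 7 macrophage and leukocyte markers, 9.39 and 8.22, against 7.80 in cKO replicate 3 and 7.30 to 7.78 in the control corpus. Clear cell markers averaged 8.59, 8.16 and 9.35 in cKO replicates 1, 2 and 3, against 8.95 to 9.16 in the control corpus. Their lowest control array was replicate 2, where Slc1a1 was highest. Fibroblast markers averaged 10.88, 10.40 and 10.00 in cKO replicates 1, 2 and 3, against 9.56 to 10.03 in the control corpus. Markers of the initial segment and caput averaged 9.73, 10.37 and 8.46, against 9.42 to 10.06. The part of these cells and of this response in the level of Slc1a1 was not tested. Over the 3 markers of nerve and glia that were measured, averages stayed between 4.49 and 4.93 in all 4 groups, below the array medians.

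The other glutamate carriers, Slc1a2 and Slc1a3, are the main ones of astrocytes, and both were near the bottom of the scale. Slc1a2 read 4.74, 4.86 and 4.85 in the cKO corpus, against 4.91 to 5.33 in the control corpus. These arrays did not overlap, but the difference of -0.26 did not pass the threshold (standard error 0.14, adjusted p = 0.679 from limma). Slc1a3 read 4.84, 4.82 and 5.01 in the cKO cauda, against 4.82, 4.50 and 4.38 in the control cauda. The cKO arrays were higher with no overlap, by 0.33 (standard error 0.26, adjusted p = 1 from limma), or by 0.18 without replicate 3 of both cauda groups. In the other region of each gene the arrays of the genotypes overlapped. The corpus difference of Slc1a3 was -0.19, and it changed sign, to 0.16, without cKO replicate 1.

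Slc1a4 and Slc1a5 encode exchangers of neutral amino acids, Slc1a4 with alanine, serine and cysteine as substrates and Slc1a5 with glutamine as its best known one. Slc1a4 read 7.14, 6.83 and 8.04 in the cKO corpus, against 7.65, 8.11 and 8.20 in the control corpus. As for Slc1a1, cKO replicate 3 was the array nearest to the controls, and here it overlapped them. The difference was -0.65 (standard error 0.29), with an unadjusted p = 0.0461 and an adjusted p = 0.588 from limma. It was -0.55 and -0.40 without cKO replicates 1 and 2, and -1.0 without cKO replicate 3, where the adjusted p was 0.0607. Slc1a5 read 9.55, 9.74 and 8.41 in the cKO corpus and 8.11, 9.43 and 8.81 in the control corpus, with wide overlap and a difference of 0.45 (standard error 0.39, with adjusted p = 0.832 by limma). Without cKO replicates 1, 2 and 3 it was 0.29, 0.20 and 0.86, none of which passed. In the cauda, the differences of Slc1a4 and Slc1a5 were -0.01 and 0.24, and neither passed (adjusted p = 1 for each, limma).

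Slc7a1, the single-chain carrier of arginine and lysine, varied least among the 7 genes that were above the median on at least 11 arrays, with all 12 arrays between 7.99 and 8.84. It read 8.57, 8.63 and 8.77 in the cKO corpus against 8.49, 8.17 and 8.84 in the control corpus, and 8.51, 8.77 and 8.62 in the cKO cauda against 8.54, 7.99 and 8.50 in the control cauda. Its corpus difference of 0.15 (adjusted p = 0.909) and its cauda difference of 0.30 (adjusted p = 1) did not pass the threshold in limma.

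Slc7a5 encodes the light chain that exchanges large neutral amino acids such as leucine. In the corpus it read 9.91, 9.87 and 9.47 in cKO mice and 9.62, 9.74 and 9.91 in control mice, a difference of -0.01 (standard error 0.21). In the cauda it read 9.39, 9.59 and 8.99 in cKO mice, against 9.09, 8.84 and 8.38 in control mice. Replicate 3 was the lowest of both cauda groups, and 1 control array lay above it, so that the groups overlapped. The difference of 0.55 had an unadjusted p = 0.0255 and an adjusted p = 0.692 from limma. It was 0.72 without cKO replicate 3, 0.36 without control replicate 3 and 0.52 without both, and none of these passed.

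Slc7a11, the light chain that brings in cystine in exchange for glutamate and so feeds glutathione synthesis, gave nearly the same level in both genotypes of the corpus. It read 9.54, 9.55 and 9.60 in cKO mice and 9.87, 9.42 and 9.57 in control mice, a difference of -0.06 (standard error 0.21). In the cauda it read 8.86, 8.77 and 8.44 in cKO mice and 8.86, 8.00 and 8.29 in control mice, 0.31 apart (standard error 0.21, with adjusted p = 1 by limma). A second, dimmer probe-set gave -0.36 in the corpus (adjusted p = 0.665 from limma) and 0.14 in the cauda.

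Slc7a15 encodes a light chain described in the mouse as a carrier of aromatic amino acids. In the corpus it read 6.20, 5.60 and 5.78 in cKO mice and 6.79, 7.87 and 5.02 in control mice. The control arrays covered a wide range, the lowest and the highest of the 6 being control replicates 3 and 2, and the cKO arrays lay between them. The difference of -0.70 (standard error 0.52, adjusted p = 0.802 from limma) was -0.04 without control replicate 2 and -1.47 without control replicate 3. In the cauda it read 10.89, 10.99 and 10.98 in cKO mice and 10.93, 11.22 and 10.82 in control mice, a difference of -0.03 (standard error 0.52). Both differences between genotypes contain control arrays whose values were known when the gene was chosen.

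Slc3a1 encodes the heavy chain that carries the cystine transporter of the kidney to the membrane, and its signal was near the bottom of the scale. It read 4.71, 4.55 and 5.22 in the cKO corpus and 5.10, 5.19 and 5.20 in the control corpus. Replicate 3 was the cKO array above all controls, the other 2 lay below them, and the difference of -0.34 did not pass the threshold (standard error 0.16, with adjusted p = 0.631 by limma). It was -0.28 and -0.20 without cKO replicates 1 and 2, and -0.53 without cKO replicate 3, where the adjusted p was 0.0674. In the cauda its difference was -0.01.

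**Figure D2:**
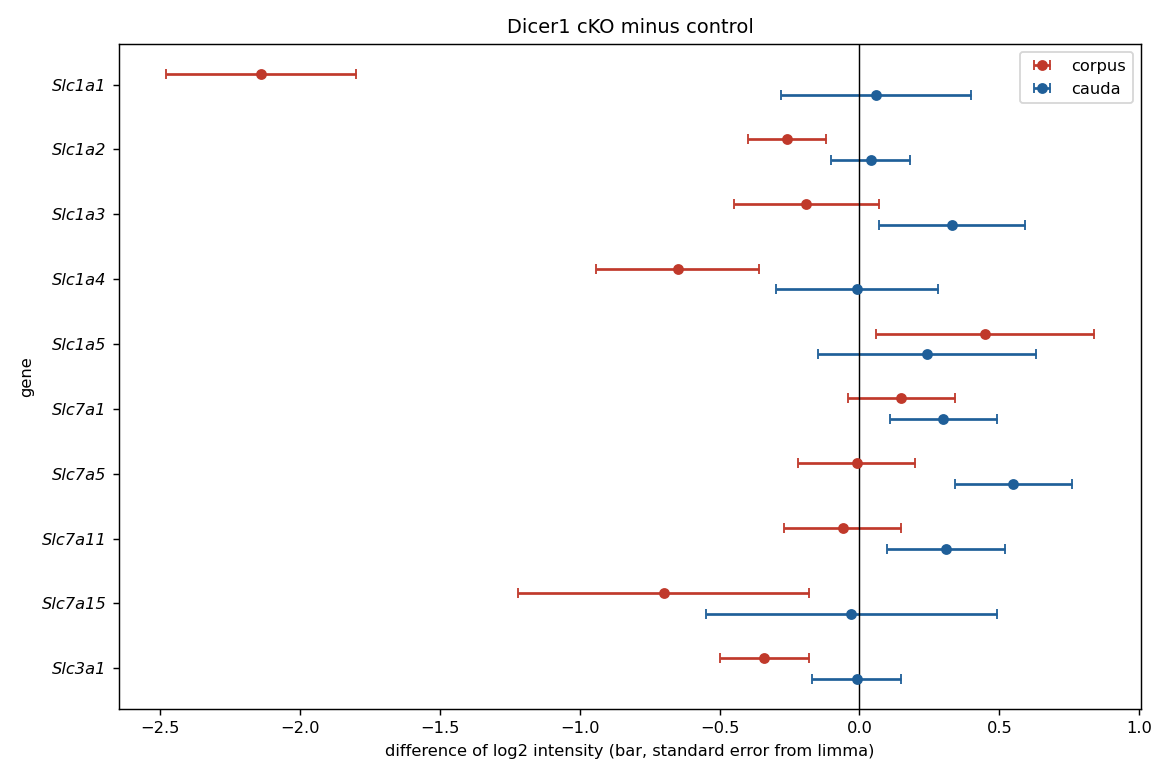
The difference of log2 intensity between Dicer1 cKO and control mice for each gene, by region, with bars for the standard error from limma. The value of Slc1a1 in the corpus (-2.14) lies far to the left of the others, and it was known when the gene was chosen, whereas the cauda values lie between -0.03 and 0.55.

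Counted over the genes whose values are tested, no carrier passed the adjusted threshold for the cKO in either region. At an adjusted p under 0.05 from limma, 0 of 9 genes passed in the corpus, as did 0 of 10 in the cauda, and this was so for 0% of the 22180 genes in each region. The count over all genes was not stable. In the corpus it was 694 without cKO replicate 3, and in the cauda it was 73 and 66 without corpus cKO replicates 1 and 3, which enter there only through the pooled variance, and 62 in a fit of the 6 cauda arrays alone. At an unadjusted p under 0.05, 1 of 9 was lower in the corpus (Slc1a4), against 4.8% of all genes, and 0 of 9 were higher, against 5.49%. In the cauda 1 of 10 was higher (Slc7a5), against 1.45% of all genes, and 0 of 10 were lower, against 3.77%. With the variance of each probe-set alone, as in the pairwise contrasts of the methods, 0 of 9 and 0 of 10 passed after adjustment, and 0 of 9 and 1 of 10 before it. The shares of all genes with that variance are not given here. Arrays of the genotypes did not overlap for 1 of 9 genes that was lower in the cKO corpus (Slc1a2, background 6.42%), for 0 of 9 that was higher (6.88%), for 1 of 10 that was higher in the cKO cauda (Slc1a3, 5.5%) and for 0 of 10 that was lower (6%). Counts of 0 or 1 among so few genes are near the background and are not a result about these genes.

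Whether the cKO effect differed between corpus and cauda was tested for the 8 genes other than Slc1a1 and Slc7a15. It passed for 0 of 8 at an adjusted p under 0.05 from limma (0% of all genes) and for 0 of 8 at an unadjusted p under 0.05 (6.44% of all genes in either direction). The largest of these differences, corpus minus cauda, were those of Slc1a4 (-0.65, standard error 0.41) and Slc7a5 (-0.56, standard error 0.30). Without Slc1a1, the other 9 genes had a median cKO effect of -0.19 for corpus arrays, against -0.03 over all genes, with 2 above 0 and 7 below it. In the cauda the median of the 10 genes was 0.15, against 0.03 over all genes, with 7 above 0 and 3 below it.

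Between the regions, Slc7a15 lay between 10.82 and 11.22 on the cauda arrays and between 5.02 and 7.87 on the corpus arrays. In cKO mice it rose in the cauda by 5.09 on the log2 scale (standard error 0.52, 34.2-fold, adjusted p = 0.000406 from limma). The gene was chosen on its control values, and whether its cKO values were also known is not stated. The standard error is pooled over all 12 arrays, control arrays included, so this p-value is not independent of the choice. Its means in cKO mice were 10.95 ± 0.06 in the cauda and 5.86 ± 0.30 in the corpus (SD, n = 3 each), with no overlap. In control mice they were 10.99 ± 0.21 in the cauda and 6.56 ± 1.44 in the corpus (SD, n = 3 each), a difference of 4.43, or 21.6-fold, given as a description. That difference was 5.09 without corpus replicate 2 and 3.66 without corpus replicate 3.

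Smooth muscle markers also differed between the regions. Over 9 of them the average log2 intensity was 11.05 to 11.41 in the cKO cauda and 10.95 to 11.26 in the control cauda, against 9.44 to 10.08 in the cKO corpus and 8.91 to 9.35 in the control corpus. The part of muscle in the level of Slc7a15 was not tested.

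Slc1a1 was higher in the cauda than in the corpus of both genotypes, with no overlap. In cKO mice its means were 11.02 ± 0.10 in the cauda and 7.54 ± 0.83 in the corpus (SD, n = 3 each), a difference of 3.48, or 11.1-fold, given as a description. In control mice they were 10.96 ± 0.13 in the cauda and 9.68 ± 0.43 in the corpus (SD, n = 3 each). This difference of 1.28, or 2.43-fold (standard error 0.34), had an adjusted p = 0.0715 from limma, short of the threshold. It shares the control corpus arrays with the cKO comparison that led to the choice of the gene. Without corpus cKO replicate 3, an array that enters it only through the pooled variance, the adjusted p was 0.00786.

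Slc7a11 and Slc7a5 ran the other way. Slc7a11 fell in the cauda of control mice by 1.24 (standard error 0.21, 2.36-fold lower, adjusted p = 0.00844 from limma). In control mice its means were 8.38 ± 0.44 in the cauda and 9.62 ± 0.23 in the corpus (SD, n = 3 each), with no overlap. In cKO mice the means were 8.69 ± 0.22 in the cauda and 9.56 ± 0.03 in the corpus (SD, n = 3 each), again with no overlap, and the difference of -0.87 (standard error 0.21) had an adjusted p = 0.0578, just short of the threshold. The second, dimmer probe-set of Slc7a11 gave -1.15 in control mice (adjusted p = 0.00672) and -0.65 in cKO mice (adjusted p = 0.121), so that both probe-sets ran in the same direction. Slc7a5 fell in the cauda of control mice by 0.99 (standard error 0.21, 1.98-fold lower, adjusted p = 0.0295 from limma). Its means in control mice were 8.77 ± 0.36 in the cauda and 9.76 ± 0.15 in the corpus (SD, n = 3 each). In cKO mice they were 9.32 ± 0.30 and 9.75 ± 0.24 in cauda and corpus (SD, n = 3 each), and the difference of -0.43 did not pass (adjusted p = 0.459). The call of Slc7a5 was lost in 5 of the 12 fits that each left out 1 array. These were the fits without any one of the 3 corpus control arrays (adjusted p = 0.0622, 0.0839 and 0.123 without replicates 1, 2 and 3) and those without cauda control replicate 2 (0.0784) or 3 (0.0995).

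Slc1a5 was lower in the cauda by 1.23 in cKO mice (8.00 ± 0.23 in the cauda and 9.23 ± 0.72 in the corpus, SD, n = 3 each) and by 1.03 in control mice (7.76 ± 0.39 in the cauda and 8.78 ± 0.66 in the corpus, SD, n = 3 each). Its values had an adjusted p of 0.15 and 0.215 from limma, so that neither passed, although the arrays of cKO mice did not overlap. Without corpus cKO replicate 3 the difference in cKO mice was -1.65 and passed (adjusted p = 0.0248). The second probe-set of Slc1a5 gave -0.75 in cKO mice, which passed (adjusted p = 0.0494), and -0.60 in control mice (adjusted p = 0.1). Slc1a4 gave -0.77 in control mice (adjusted p = 0.214) and -0.13 in cKO mice (adjusted p = 0.924). The remaining 4 genes (Slc1a2, Slc1a3, Slc7a1 and Slc3a1) differed between the regions by -0.33 to 0.22, and none passed the threshold.

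**Figure D3:**
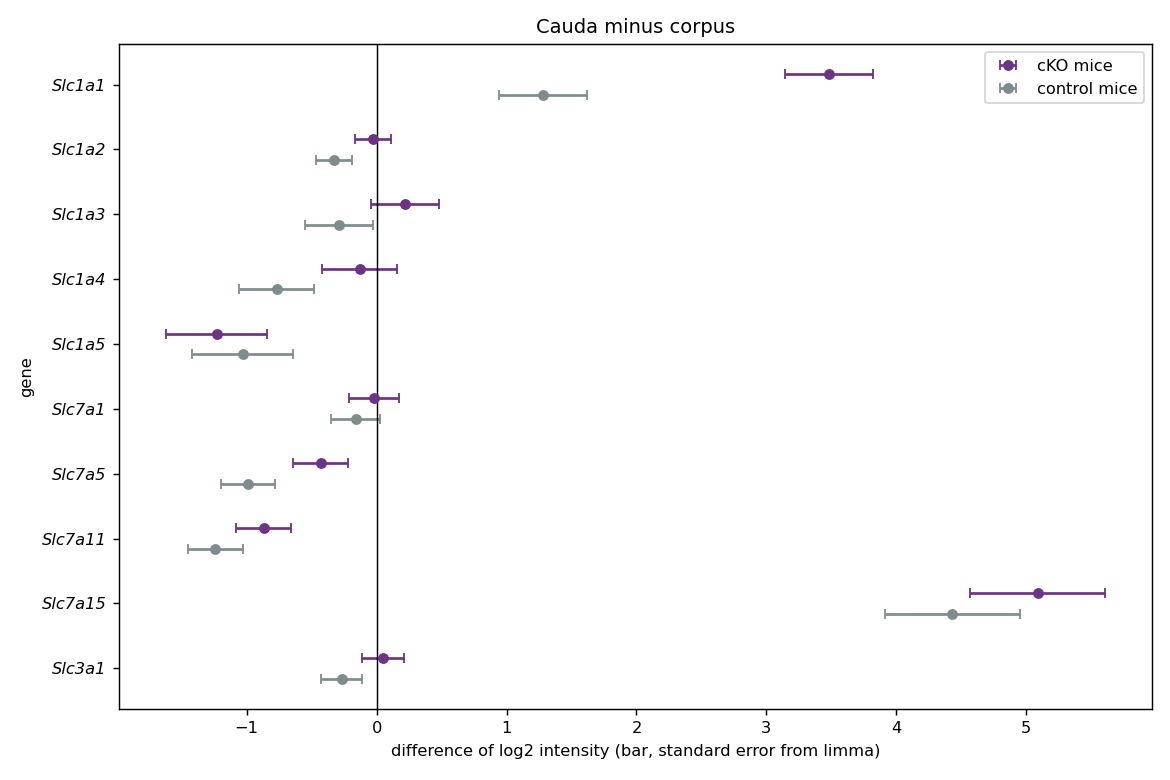
The difference of log2 intensity between cauda and corpus for each gene, in cKO mice and in control mice, with bars for the standard error from limma. Slc7a15 and Slc1a1 lie to the right in both genotypes (5.09 and 3.48 in cKO mice, 4.43 and 1.28 in control mice), and Slc1a5, Slc7a5 and Slc7a11 lie to the left in both.

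Of the 9 genes tested in cKO mice, 1 passed as higher in the cauda (Slc7a15), against 2.53% of all genes, and 0 as lower, against 1.72%. Of the 9 tested in control mice, 0 passed as higher, against 2.48%, and 2 as lower (Slc7a5 and Slc7a11), against 2.74%. With the variance of each probe-set alone, 1 of 9 passed in each genotype, and the share of all genes with that variance is not given here. The cauda minus corpus difference did not itself pass as different between the genotypes for any of the 8 genes tested.

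Related genes were read from 6 lists of amino acid carriers, enzymes of glutamate and glutamine, and glutamate receptors, 94 genes in all, of which 89 had a probe-set of their own and 51 a mean above the median. For the cKO, 0 of 89 passed the adjusted threshold from limma in the corpus, in the cauda or for the difference between them. At an unadjusted p under 0.05, 4 were higher and 7 lower in the cKO corpus, against 5.49% and 4.8% of all genes, and 1 was higher and 0 lower in the cKO cauda, against 1.45% and 3.77%. Slc3a2, the heavy chain that Slc7a5 and Slc7a11 need, was bright and nearly level, with a cKO effect of -0.08 for the corpus and 0.05 for the cauda, and cauda minus corpus differences of -0.22 in cKO mice and -0.35 in control mice, none of which passed. In the corpus the largest decreases were those of Slc38a4 (-1.02), a carrier of neutral amino acids, and Gria4 (-0.77), a glutamate receptor subunit. The largest increases were those of Slc38a1 (0.68), which carries glutamine, and Slc43a3 (0.65), known to carry purine bases. In the cauda the extremes were Slc6a20a (0.55), Slc38a5 (0.55), Slc7a10 (-0.39) and Slc6a19 (-0.22).

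Slc38a4 shared with Slc1a1 that cKO replicates 1 and 2 were its lowest corpus arrays, though the order of the arrays differed. It read 9.40, 9.24 and 10.93 in the cKO corpus, against 10.65, 10.95 and 11.04 in the control corpus, so that cKO replicates 1 and 2 lay below all controls and replicate 3 lay among them. Its adjusted p from limma was 0.448. In Slc25a12, Slc25a22, Ctns, Psat1 and Gria4 of the same lists, cKO replicates 1 and 2 were likewise the lowest corpus arrays. The trait is thus not particular to Slc1a1 and Slc38a4. Over all genes, 694 passed in the corpus without cKO replicate 3, as given above.

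Between the regions, 5 of the 89 rose and 1 fell in the cauda of cKO mice, against 2.53% and 1.72% of all genes, and 4 rose and 4 fell in the cauda of control mice, against 2.48% and 2.74%. Of these, 3 rose and 1 fell in both genotypes. The 3 were Slc6a20a, which carries proline (2.67 in cKO mice with adjusted p = 0.000397, and 1.40 in control mice with adjusted p = 0.0162), Slc6a6, which carries taurine (1.19 with adjusted p = 0.00813, and 0.91 with adjusted p = 0.0314), and Gpt2, which links glutamate to alanine (0.94 with adjusted p = 0.00205, and 0.68 with adjusted p = 0.0131). The gene that fell in both was Slc25a22, the glutamate carrier of the inner mitochondrial membrane (-1.45 in cKO mice with adjusted p = 0.0201, and -1.89 in control mice with adjusted p = 0.00443). It read 7.89, 7.58 and 7.78 in the cKO cauda and 8.04, 7.78 and 7.39 in the control cauda, against 8.96, 8.75 and 9.89 in the cKO corpus and 9.58, 9.32 and 9.99 in the control corpus. Every cauda array of Slc25a22 was below every corpus array.

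The other calls were made in 1 genotype, and as given above the difference between the genotypes passed for none of these genes. In cKO mice Slc7a12, a light chain relative, rose by 2.44 (adjusted p = 0.00825), and Ctns, the cystine carrier of lysosomes, rose by 1.11 (adjusted p = 0.0411). The corpus arrays of Slc7a12 were near the lower end of the scale (2.65 to 2.95), and its cauda arrays were near the array medians (4.86 to 5.51). In control mice Slc38a1 rose by 1.44 (adjusted p = 0.00629). Psat1, an enzyme of serine synthesis that uses glutamate, fell by 1.06 there (adjusted p = 0.0338), Slc38a3, a glutamine carrier, by 1.05 (adjusted p = 0.0339) and Slc25a13, the aspartate and glutamate exchanger of mitochondria, by 0.69 (adjusted p = 0.0379). Slc38a3 read 4.16 to 4.68 in the control cauda and 4.96 to 5.67 in the control corpus, near or below the array medians. All of these adjusted p-values are from limma. Over the 89 genes the median difference between cauda and corpus was 0.02 in cKO mice, against -0.01 over all genes, and -0.07 in control mice, against -0.03 over all genes.

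**Figure D4:**
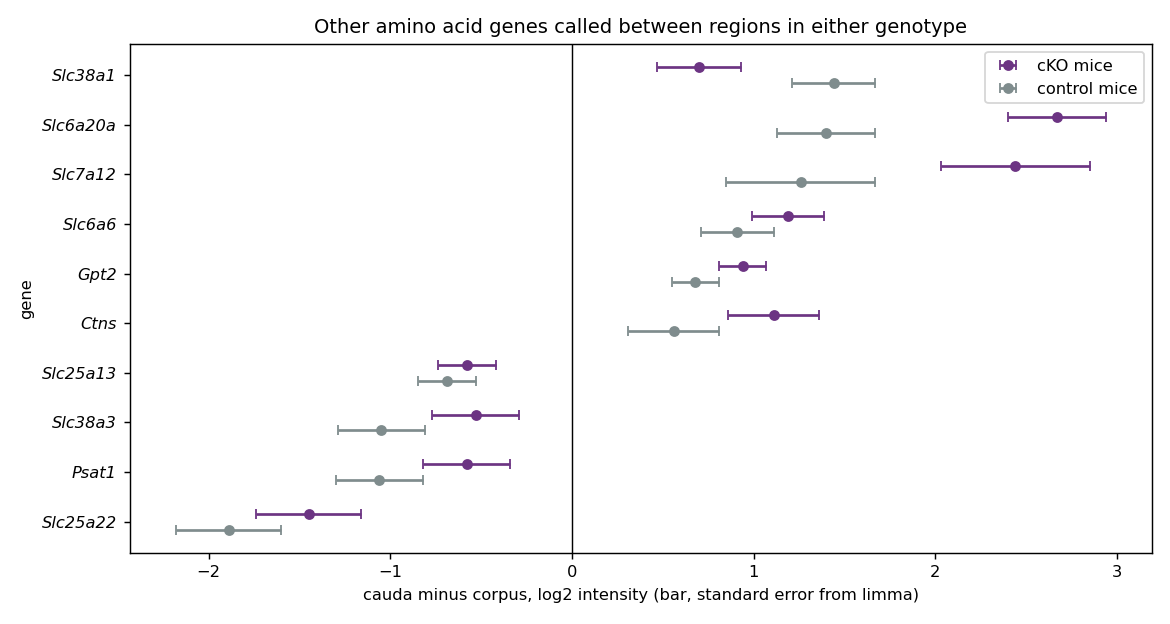
The difference of log2 intensity between cauda and corpus for the 10 listed genes that passed the adjusted threshold in at least 1 genotype, in cKO mice and in control mice, with bars for the standard error from limma. All 10 lie on the same side of 0 in both genotypes. They run from Slc6a20a (2.67) to Slc25a22 (-1.45) in cKO mice and from Slc38a1 (1.44) to Slc25a22 (-1.89) in control mice.

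The patterns of Slc1a1 and Slc7a15 were set beside those of all other genes by the root mean square difference of log2 values over the 12 arrays, after each gene was centred on its own mean. The 5 genes nearest to Slc1a1 were Pnmt (0.373), which makes adrenaline, Syn2 (0.382), a protein of synaptic vesicles, Acbd7 (0.44), which binds acyl-CoA, Inmt (0.545), a methyltransferase of indole amines, and Adgrf1 (0.549), an adhesion receptor. The median over all genes was 1.48. Pnmt read 5.85, 5.62 and 7.94 in the cKO corpus, against 7.89, 8.27 and 8.15 in the control corpus, and lay between 9.09 and 9.95 in the cauda. As for Slc1a1, the cKO array nearest to the controls was replicate 3.

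The 5 genes nearest to Slc7a15 were Svs1 (0.451), a seminal vesicle secretory protein, P2rx1 (0.54), the ATP-gated channel of smooth muscle, Klk1b27 (0.615), a kallikrein protease, Chrm2 (0.656), a muscarinic acetylcholine receptor, and Smpx (0.689), a small protein of muscle. The median over all genes was 2.49. Svs1 read 9.60, 10.36 and 10.11 in the cKO cauda and 9.54, 9.35 and 9.72 in the control cauda, against 4.25, 4.17 and 4.83 in the cKO corpus and 6.25, 7.25 and 3.58 in the control corpus. In the control corpus its highest and lowest arrays were replicates 2 and 3, the same as for Slc7a15. These likenesses describe 12 arrays that fall into 4 groups and carry no test.

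**Figure D5:**
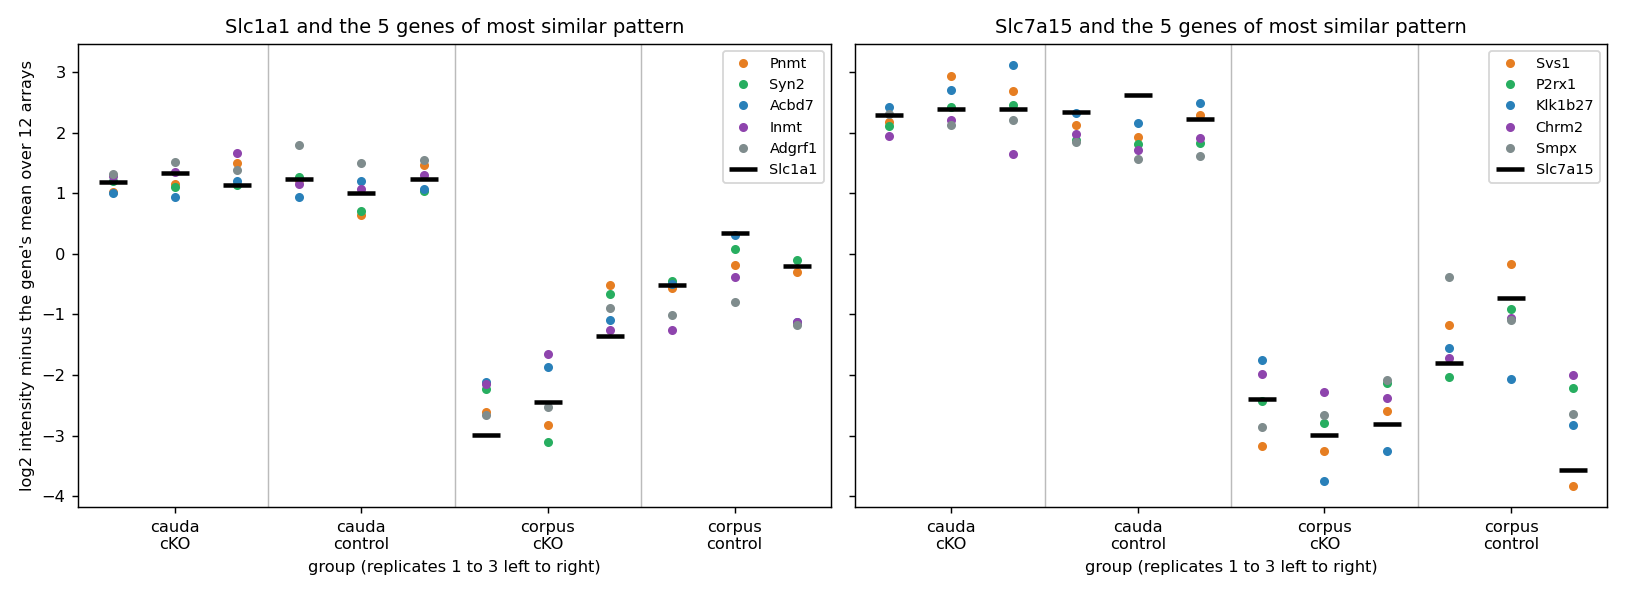
The log2 intensity of Slc1a1 and of Slc7a15 (black dashes) and of the 5 genes nearest to each (coloured points), on the 12 arrays by group and replicate, each minus the mean of the gene over the 12 arrays. In the left panel the 6 genes lie lowest in corpus cKO replicates 1 and 2. In the right panel the genes are high in the cauda, and Slc7a15 and Svs1 spread widely in the control corpus.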

How the data were processed

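Corpus and cauda RNA of 3 Dicer1 cKO and 3 control mice was hybridised to Affymetrix Mouse Gene 2.0 ST arrays, per the methods; the sample labels describe the microRNA labelling instead. The deposited log2 intensities were made by the authors with RMA in Partek, named without a version in the submitters' processing notes, and were used unchanged. The number of arrays limits precision. Of 41345 probe-sets, 23521 had 1 gene symbol, 1820 several and 16004 none here.

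Group means of all 12 arrays were fitted together in limma 3.58.1 (R 4.3.3), with 8 residual and 3.18 prior degrees of freedom. Two-sided p-values received a Benjamini-Hochberg adjustment across every probe-set, and 0.05 was the threshold. Shares of all genes use the brightest probe-set of each of 22180 genes. The procedure was tested on simulated data with independent noise of equal spread in all groups, which does not cover the unequal spreads seen here. The 10 genes, the related gene lists and the markers were chosen with earlier results of these data known. All 10 are named, and of the lists Slc3a2, the calls and the 2 largest changes each way. Slc38a4 and the genes named with it beside Slc1a1, as well as Pnmt and Svs1, were chosen as examples after their values were seen.

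Alternatives were each probe-set's own variance, brighter or singly named probe-sets, quantile normalization, centring on the median, only the 6 arrays compared, the mean of a gene's probe-sets, replicate blocks (statmod 1.5.0) and leaving out each array. Leaving out replicate 3 of both cauda groups together was added after seeing the data.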

Additional observations from a re-analysis of the deposited data

How the results depend on the processing

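Counted over the genes whose values are tested, 0 of 9 passed for the cKO in the corpus, 0 of 10 in the cauda and 0 of 8 for the difference of the effects, under every alternative run. Over all genes the last count was 0 with all arrays and 107 without corpus cKO replicate 3. Between the regions 943 of all genes passed in cKO mice. That count was 527 to 1372 when 1 array was left out and 404 to 1443 in the other alternatives. In control mice 1157 of all genes passed, with 540 to 1617 and 577 to 1749 in the same settings. Of the tested genes, 1 of 9 passed in cKO mice. This was 2 among the brighter probe-sets, among those with 1 symbol, with the mean of the probe-sets of a gene and with a replicate block, fixed or random, and 1 to 2 when 1 array was left out. The added gene was Slc7a11, with an adjusted p from limma of 0.0255, 0.0242, 0.0322, 0.0376 and 0.0464 in that order and of 0.0218 and 0.0379 without cauda control replicates 1 and 2, or Slc1a5 without corpus cKO replicate 3. In control mice 2 of 9 passed. This was 1 with the variance of each probe-set alone, in a fit of only the 6 arrays and without replicate 3 of both cauda groups, 1 to 3 when 1 array was left out, and 2 with either replicate block, which changed no other call.

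Slc7a5 was lost in the control cauda in those 3 fits (0.07, 0.0608 and 0.077) and Slc7a11 only with the 6 arrays (0.0509). The cause was not tested. Slc1a1 in control mice passed among the brighter probe-sets (0.0365), those with 1 symbol (0.0336), in the 6 arrays (0.0366) and without corpus cKO replicate 1 (0.0335) or 3. These fits share the control corpus arrays with the comparison that led to the choice of the gene. Of 1075 recomputed differences of single genes, 1037 kept the sign reported, and no called one changed sign.

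Nothing in the labels pairs same-numbered arrays. Their deviations correlated by -0.0385 to 0.208, with 3 of 12 pairs over 0.1. In the 4 pairs of groups 3, 2, 3 and 2 of 3 arrays correlated best with their own number, a hint from the data that does not settle a pairing. The highest correlations, 0.208 and 0.139, were between cKO and control corpus arrays, which come from different mice. The methods name 3 control and 3 cKO mice for both regions, and the main region tests were unpaired.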
